A study of Drosophila melanogaster with 6 samples.

Results

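The sperm leucyl aminopeptidases, or S-Laps, of *Drosophila melanogaster* are a small family of leucyl aminopeptidase-like proteins. The 8 members described here, *S-Lap1*, *S-Lap2*, *S-Lap3*, *S-Lap4*, *S-Lap5*, *S-Lap7*, *S-Lap8* and *loopin-1*, were picked by symbol from the 17489 genes of the count tables. They were picked after their counts on the 2 diets, and their pattern over the sugar diet libraries, had been seen. Their diet differences are therefore a description and support nothing beyond the values themselves. *loopin-1* also carries the name *S-Lap6* in RefSeq.

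Both groups were adult males of 1 genotype, Gr5a:Pclc429>UAS-Rpl3-3XFLAG, so that the *Pcl* c429 allele and a FLAG-tagged ribosomal protein driven in *Gr5a* cells were shared by control and treated flies. *Pcl* encodes an accessory protein of a Polycomb repressive complex. Flies ate a control diet with 5% sucrose or a sugar diet with 30% sucrose for 7 days, from day 5 to day 12, and 3 libraries per diet were made, each from 300 pooled heads. The method captures RNA on tagged ribosomes, and the fraction behind each library (bead-bound or whole lysate) was not stated. No library without the *Pcl* allele was analysed here.

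In the male germline the mitochondria of each spermatid fuse into a large body, which then stretches along the growing tail as the mitochondrial derivatives. These derivatives fill with a crystal-like protein material, and S-Lap proteins are abundant components of it. Several S-Laps have lost residues that an active aminopeptidase needs, so their role in sperm is regarded as largely structural. The heads collected here do not contain the testis, the organ in which these genes are known to be expressed.

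The libraries held 12617127 to 24076315 sense counts, and 12740 to 13994 genes had a count in the control libraries against 14614 to 14739 in the sugar libraries. Neuronal and photoreceptor genes were high in all 6 libraries, whereas the 5 sweet receptor genes *Gr5a*, *Gr61a*, *Gr64a*, *Gr64f* and *Gr43a* had between 0 and 21 counts in any library. Most of these markers of the labelled cell type were near the counting floor of 3 counts, but *Gr61a* had a mean of 14.0 normalized counts in control flies. Such low counts do not measure how much RNA of the labelled cell type the libraries held. *Pcl* itself was at 929 ± 69.3 normalized counts in control flies against 909 ± 75.9 in sugar-fed flies (mean ± SD, n = 3), which does not check the labels because both groups carry the allele. The yolk protein gene *Yp1*, which is known for expression in the female fat body, stood at 21747 normalized counts in control replicate 2 and 2363 in control replicate 3 of these male samples, against 117 in control replicate 1 and 19.4 to 44.6 in the sugar libraries. Without control replicate 2 the median log2 fold change of the 8 S-Lap genes was 6.31, and without control replicate 3 it was 6.33, against 6.44 with all libraries.

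All 8 S-Lap genes had higher counts on the sugar diet, and in each of them every sugar library lay above every control library. Summed over the 8 genes, the raw sense counts were 171, 43 and 124 in control replicates 1 to 3 and 5707, 7640 and 15113 in sugar replicates 1 to 3. Divided by the DESeq2 size factors, which correct for depth, the sums were 134, 65.0 and 122 for the control replicates and 5306, 7162 and 14637 for the sugar replicates. The lowest sugar library was thus 39.7 times the highest control library. The mean of the summed normalized counts was 106.9 ± 36.7 (SD, n = 3) on control food and 9035 ± 4940 on sugar food, and the pooled counts stood in a ratio of 78.4 with a 95% interval of 70.5 to 87.6 that covers counting error only. As a share of the library, the family held 0.0341 to 0.0710 of every 10000 sense counts in control flies against 2.98 to 9.05 in sugar-fed flies. In pooled heads a larger number of cells of a type and more RNA per cell cannot be told apart.

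**Figure D1:**
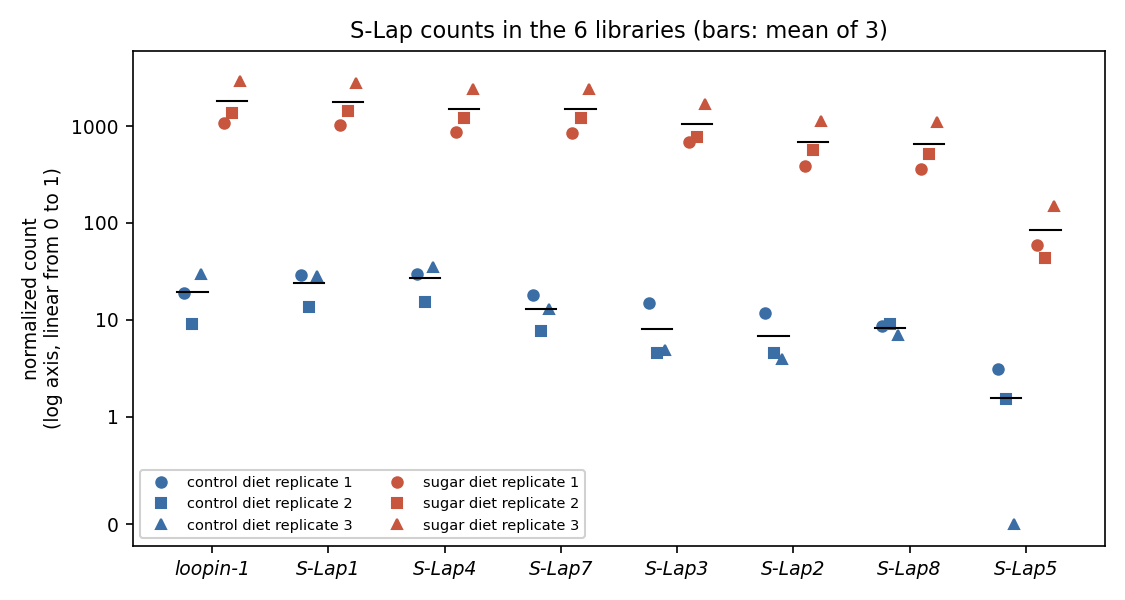
Normalized counts (log axis, linear from 0 to 1) of the 8 S-Lap genes in the 3 control diet and 3 sugar diet libraries, with a bar at each mean of 3. Every sugar point lies above every control point of its gene, and sugar replicate 3 is the highest library for all 8 genes.

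The genes lie in 4 neighbouring pairs on 2 chromosome arms, given here in dm6 coordinates. *S-Lap1* (FBgn0035915, chromosome 3L, 8617235 to 8619474) and *S-Lap2* (FBgn0052351, 3L, 8619888 to 8622091) are both on the plus strand, 413 bases apart, with no gene between them. *S-Lap3* (FBgn0045770, 3L, 10465187 to 10468974) and *S-Lap4* (FBgn0052064, 3L, 10490861 to 10492934) are on the plus strand 21.9 kb apart, with 1 gene wholly between them. *S-Lap4* is a gene of 1 exon that lies inside an intron of *Rbfox1*, an RNA-binding splicing regulator transcribed from the same strand. On 2R, *S-Lap5* (FBgn0033860, 13596677 to 13598750, plus strand) and *S-Lap7* (FBgn0033868, 13778124 to 13780245, minus strand) are 179 kb apart with 14 genes between them. *S-Lap8* (FBgn0034132, 2R, 16491100 to 16493233) and *loopin-1* (FBgn0259795, 2R, 16534943 to 16537086) are on the plus strand 41.7 kb apart with 2 genes between them. The encoded proteins are of like length, from 524 residues for *S-Lap4* to 555 for *S-Lap1*, and none of the 8 genes has more than 3 exons.

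*loopin-1* had the highest level of the family on the sugar diet. Its protein was first described at a loop of the Y chromosome in spermatocytes and is also found along the sperm tail. It had 18.7, 9.07 and 29.5 normalized counts in the control libraries and 1069, 1376 and 2943 in the sugar libraries. The groups did not overlap, and sugar replicate 3 held more than the other 2 sugar libraries together. The means were 19.1 ± 10.2 and 1796 ± 1005 (SD, n = 3), and DESeq2 fitted a log2 fold change of 6.53 with an SE of 0.63.

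*S-Lap1* had a nearly equal level. Its normalized counts were 28.9, 13.6 and 28.5 in the control libraries against 1028, 1436 and 2798 in the sugar libraries, without overlap, and its log2 fold change was 6.19 ± 0.55. Its close neighbour *S-Lap2* had fewer counts, at 11.7, 4.54 and 3.94 in control flies against 384, 573 and 1117 in sugar-fed flies, and a log2 fold change of 6.63 ± 0.70. In each library *S-Lap1* was above *S-Lap2*, although the pair is separated by only 413 bases. The exons of *S-Lap2* overlap those of *GAPsec* on the opposite strand over 53 bases. *GAPsec* was at 139.7 ± 6.03 and 121.9 ± 13.6 normalized counts on the 2 diets, with a log2 fold change of −0.19 ± 0.23 (q = 0.839, DESeq2).

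*S-Lap3* and *S-Lap4* also differed in level. *S-Lap3* had 14.8, 4.54 and 4.92 normalized counts in the control libraries and 680.5, 774 and 1678 in the sugar libraries, and a log2 fold change of 6.95 ± 0.69. This was the largest of the 8 with all libraries, but without control replicate 3 it was 6.67, below 6.96 for *loopin-1* and 6.82 for *S-Lap7*. Its control value rests on 19, 3 and 5 raw counts, 1 of which is at the floor of 3. *S-Lap4* had 29.7, 15.1 and 35.4 normalized counts in control flies, the highest control mean of the family at 26.7 ± 10.5, and 865, 1225 and 2416 in sugar-fed flies. Its log2 fold change of 5.79 ± 0.55 was among the lower ones. The host gene *Rbfox1* had a mean of 6787 ± 290 normalized counts in control flies against 6654 ± 534 in sugar-fed flies, and its log2 fold change was −0.03 ± 0.10 (q = 0.973, DESeq2). The exons of *S-Lap4* and *Rbfox1* share no bases, but reads from unspliced *Rbfox1* RNA would fall on *S-Lap4* on the same strand, and their part in the *S-Lap4* counts was not tested.

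*S-Lap5* was the rarest member in every library. It had 4, 1 and 0 raw counts in the control libraries and 64, 46 and 154 in the sugar libraries, or 3.12, 1.51 and 0 against 59.5, 43.1 and 149 normalized counts. The groups did not overlap, but 2 of the 3 control values were at or under the floor of 3 counts, so that the log2 fold change of 5.67 ± 0.87 had the largest error of the 8 genes. The ratio of pooled counts was 49.2 with a counting interval of 20.8 to 153.

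*S-Lap7*, the other member of that pair, was among the abundant ones. It had 18.0, 7.56 and 12.8 normalized counts in control flies against 857, 1222 and 2431 in sugar-fed flies, and a log2 fold change of 6.84 ± 0.59. It had the widest gap between the groups, with its lowest sugar library at 47.7 times its highest control library. The cuticle protein gene *Cpr50Ca*, whose span contains *S-Lap7* on the opposite strand with no shared exon, had 5.94 ± 4.81 and 6.38 ± 5.40 normalized counts on the 2 diets. *S-Lap8* had 8.59, 9.07 and 6.89 normalized counts in the control libraries, the most even control values of the family, and 363, 513 and 1106 in the sugar libraries, with a log2 fold change of 6.34 ± 0.45.

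Over the 8 members the log2 fold change had a median of 6.44 and a range of 5.67 to 6.95, beside a median of 0.02 over the 14254 genes tested. All 8 had at least 10 counts in 3 libraries and were tested, and all 8 were under the q of 0.1 used for calls over all genes (DESeq2, two-sided Wald test), where 14.0% of genes tested were called higher on sugar and 0.54% lower. Likewise 8 of 8 had non-overlapping groups with sugar above control, beside 18.1% of genes with a count. The genes were chosen for this difference, which fixed both counts of 8, so neither is a test of the members and nothing is read from them.

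Levels of different genes were compared per kilobase of exon. On the sugar diet the order was *loopin-1* (838 ± 469 normalized counts per kilobase, SD, n = 3), *S-Lap1* (827 ± 437), *S-Lap4* (724 ± 391), *S-Lap7* (708 ± 388), *S-Lap3* (346 ± 183), *S-Lap2* (330.2 ± 182), *S-Lap8* (321 ± 191) and *S-Lap5* (40.5 ± 27.5). All members were highest in sugar replicate 3, and the order was also examined by ratios within a library. Within a library *S-Lap1* was 1.13 to 1.16 times *S-Lap4*, in the same order in 3 of 3 libraries. *S-Lap4* was 1.02 to 1.03 times *S-Lap7*, but their raw counts were nearly equal. In sugar replicates 1 to 3 these were 930 and 922, 1307 and 1303, and 2494 and 2510, with *S-Lap7* higher in replicate 3. The order of *S-Lap4* and *S-Lap7* thus rests on their exon lengths of 2074 and 2122 bases and is not resolved by the counts. The step from *S-Lap7* to *S-Lap3* was 1.79 to 2.24, and that from *S-Lap8* to *S-Lap5* was 6.15 to 12.0. By contrast *loopin-1* and *S-Lap1* (0.948 to 1.04), *S-Lap3* and *S-Lap2* (0.939 to 1.23), and *S-Lap2* and *S-Lap8* (0.991 to 1.10) changed order between libraries. Per kilobase of exon the members thus fell into 4 abundant genes, 3 genes of intermediate density, and *S-Lap5* far below. *S-Lap3* has the longest merged exons of the 8, at 3014 bases of which 1605 are coding. Per kilobase of coding sequence the order of the 8 means was the same, but the steps were not examined. The place of *S-Lap3* in the intermediate class was therefore read per kilobase of exon only, and whether it depends on the length used was not tested.

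**Figure D2:**
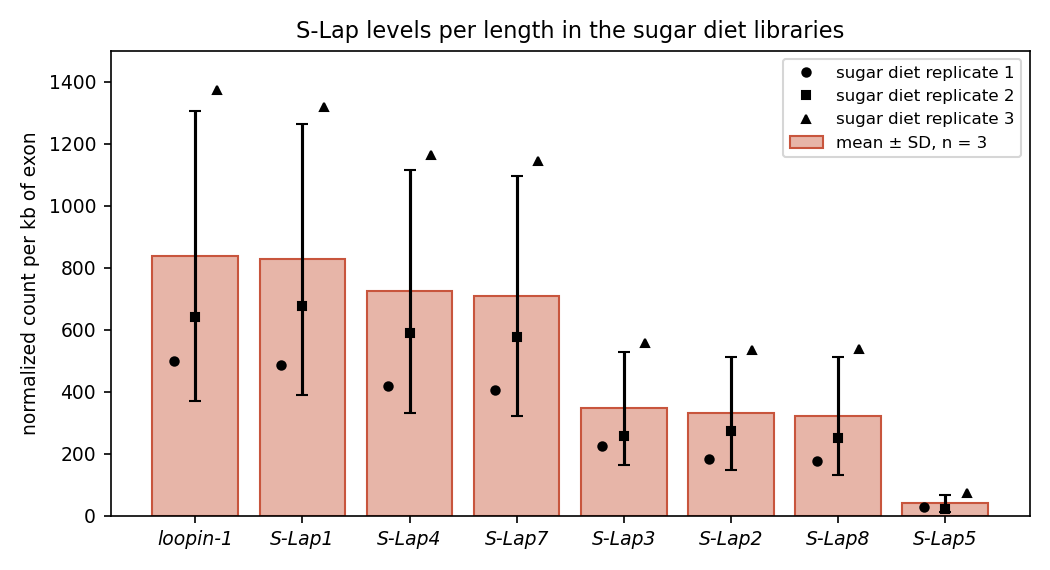
Normalized counts per kilobase of exon for the 8 S-Lap genes in the 3 sugar diet libraries, as points, with a bar at the mean ± SD (n = 3). The genes from *loopin-1* to *S-Lap7* lie between 404 and 1373, those from *S-Lap3* to *S-Lap8* between 176 and 557, and *S-Lap5* between 20.8 and 71.9.

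The same counts show where the family stood among all genes. Ranked by normalized counts per kilobase, *loopin-1* was at rank 10121 of the 14983 genes with a count in control flies and at rank 1125 of 15359 in sugar-fed flies. *S-Lap1* went from rank 9840 to 1145, *S-Lap4* from 9652 to 1325 and *S-Lap7* from 10624 to 1364. *S-Lap5* remained in the lower part, going from 13824 to 9217. On the sugar diet 4 S-Lap genes therefore stood within the top 1364 genes by density in libraries made from heads.

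The shares of most members in the family changed little over the sugar libraries, and for 3 members the control libraries lay outside the range of the sugar libraries. *S-Lap3* and *S-Lap5* changed more. The *S-Lap3* share was 12.8% (exact 95% interval 12.0 to 13.7%) in sugar replicate 1 and 10.8% (10.1 to 11.5%) in sugar replicate 2. The *S-Lap5* share was 1.12% (0.865 to 1.43%) in sugar replicate 1 and 0.602% (0.441 to 0.802%) in sugar replicate 2. In the sugar libraries *S-Lap4* made up 16.3 to 17.1% of the 28460 S-Lap counts and *S-Lap7* 16.2 to 17.1%. In the control libraries, with only 338 S-Lap counts in all, *S-Lap4* made up 22.2 to 29.0% and *S-Lap7* 10.5 to 13.5%. Pooled over the libraries of a diet, the *S-Lap4* share was 24.9% (exact 95% interval 20.3 to 29.8%) in control flies and 16.6% (16.2 to 17.1%) in sugar-fed flies. The *S-Lap7* share was 12.1% (8.85 to 16.1%) against 16.6% (16.2 to 17.1%). *S-Lap1* made up 20.9 to 23.4% in the control libraries against 19.1 to 20.1% in the sugar libraries, but its pooled control share of 22.2% had an interval (17.9 to 27.0%) that contained the sugar share of 19.4% (19.0 to 19.9%). The library ranges of the other 5 members overlapped. These intervals cover counting error only, and the shares come from the same counts by which the genes were chosen.

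**Figure D3:**
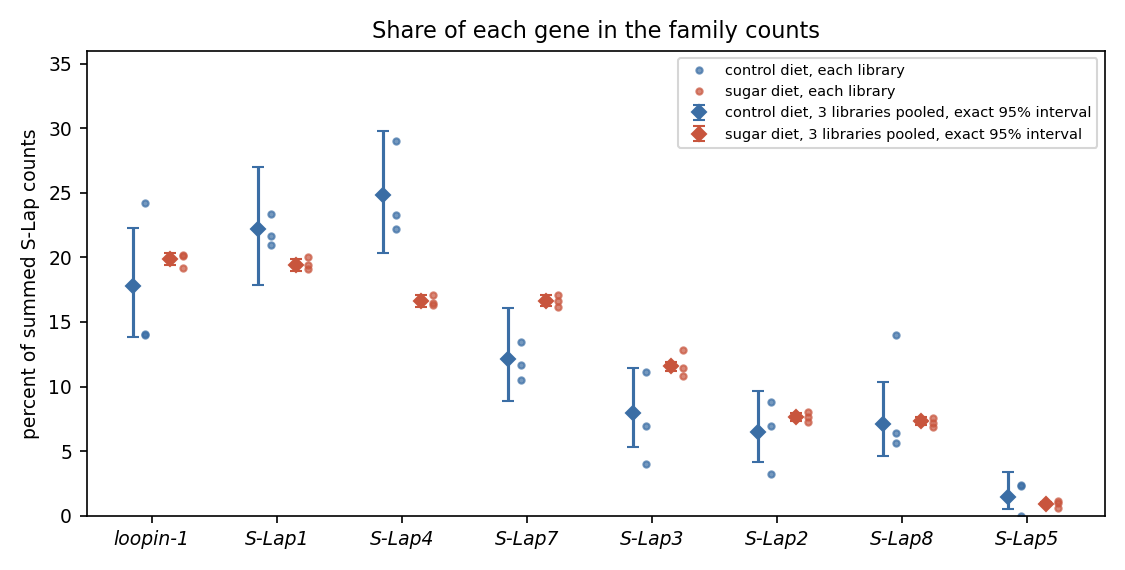
Share of each member in the summed S-Lap counts (percent), pooled over the 3 libraries of a diet with exact 95% intervals, and in each library as dots. The library shares of *S-Lap4* are 22.2 to 29.0% in the control and 16.3 to 17.1% in the sugar libraries, and those of *S-Lap7* are 10.5 to 13.5% and 16.2 to 17.1%.

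The sugar libraries differed among themselves in a pattern that nearly all members shared. For the summed family, sugar replicate 2 was 1.35 times replicate 1 (95% counting interval 1.30 to 1.40), and replicate 3 was 2.76 times replicate 1 (2.68 to 2.84) and 2.04 times replicate 2 (1.99 to 2.10). All members except *S-Lap5* had ratios of 1.14 to 1.49, 2.47 to 3.05 and 1.95 to 2.17, respectively. *S-Lap5* was lower in replicate 2 than in replicate 1, with a ratio of 0.725, but the counting interval of 0.485 to 1.08 includes equality. Its replicate 3 was 3.46 times replicate 2 (2.47 to 4.92), above the family ratio of 2.04. The same profile is common among genes that were higher on sugar. Of the 594 such genes with a mean of at least 50 normalized counts, 98.5% were highest in sugar replicate 3 and 81.5% had replicate 2 above replicate 1, with median ratios of 1.28 for replicate 2 and 2.77 for replicate 3 over replicate 1.

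The sums of other gene groups over the same 3 libraries took different courses, and the genes within a sum did not all follow it. The summed counts of 17 testis transcripts were 1.19 times as high in sugar replicate 2 as in replicate 1 and 1.49 times as high in replicate 3. Without *bol* and *twe*, which were left out after the values were seen, the remaining 15 stood at 1.63 and 3.15. Genes of the mitochondrial derivatives stood at 1.11 and 2.25. That sum contains *fzo* (256, 181 and 296 normalized counts in sugar replicates 1 to 3) and *tomboy40* (77.2, 50.6 and 136), which were lower in replicate 2 than in replicate 1. It also contains *bb8* (139, 190 and 413) and *COX4L* (94.8, 117 and 238), which were higher. Its ratios therefore depend on which genes are summed. Accessory gland genes, which encode seminal fluid proteins, stood at 1.01 (0.952 to 1.08) and 2.82, and digestive enzymes of the gut at 1.02 and 2.67. Neither sum had the step from replicate 1 to replicate 2, but single genes moved in both directions. Between these replicates the gut genes *Jon65Aiv* and *alphaTry* went from 455 to 1080 and from 416 to 863 normalized counts. *Mal-A1* went from 951 to 323 and *Amy-p* from 668 to 144. Of the accessory gland genes, *Acp36DE* went from 662 to 503 and *Acp95EF* from 227 to 287. General mitochondrial genes stood at 0.874 and 0.932, and neuronal genes at 1.07 and 0.907.

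**Figure D4:**
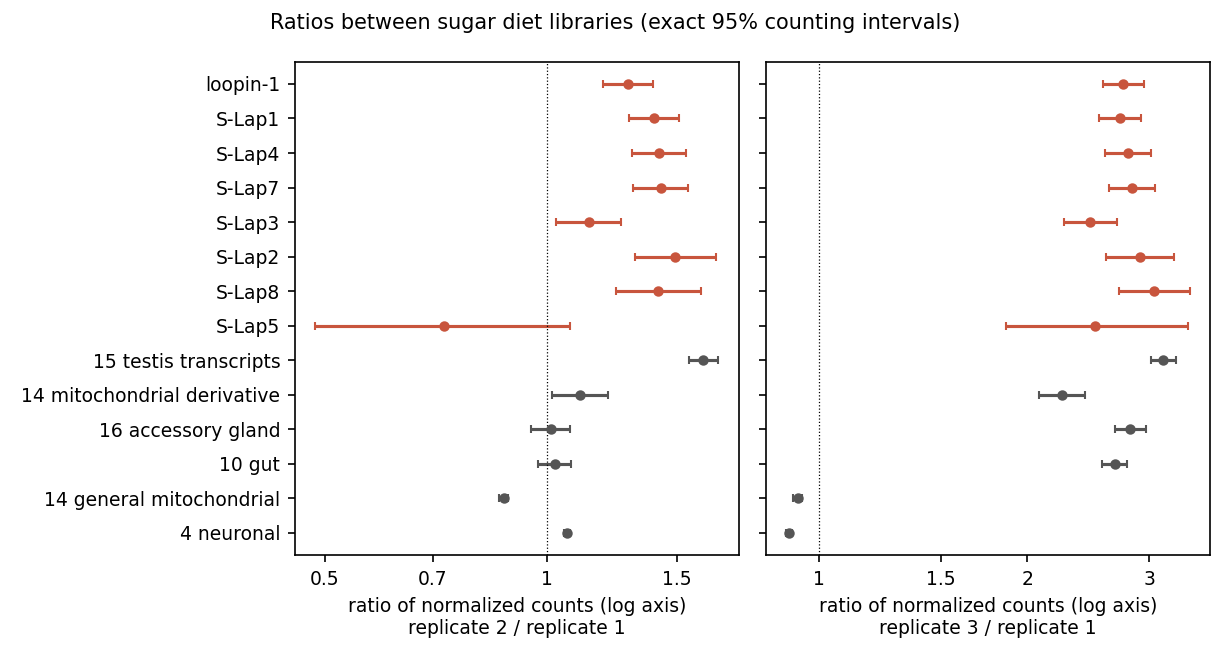
Ratio of sugar replicate 2 (left) and sugar replicate 3 (right) to sugar replicate 1, with 95% counting intervals, for each S-Lap gene and for the summed counts of other gene groups. *S-Lap5* stands at 0.725 and 2.51, the 15 testis transcripts left without *bol* and *twe* at 1.63 and 3.15 (1.19 and 1.49 for all 17, not drawn), and the accessory gland genes at 1.01 and 2.82.

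Genes with the most similar profile over all 6 libraries were sought by the distance between the shares of a gene's counts in each library, as the sum of absolute differences over 2, in percentage points. Of 9013 other genes with a mean of at least 50 normalized counts, 36 (0.399%) were within 2 points of the summed family and 224 (2.49%) within 5. The nearest were *CG4691* (0.214 points), *CG1999* (0.775), *CG32655* (0.828), *CG10252* (0.911) and *Mst98Ca* (0.964), the last a gene of male-specific transcripts of the germline. *CG4691* had 7.03, 3.02 and 7.87 normalized counts in control flies against 325, 442 and 904 in sugar-fed flies. The members themselves were at 0.825 (*S-Lap7*) to 2.21 points (*S-Lap3*) from the sum, apart from *S-Lap5* at 9.74.

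Other transcripts of the male germline were also higher on the sugar diet. Of 17 genes whose transcripts are abundant in spermatocytes or spermatids, 15 rose and none fell, beside the 14.0% of all genes that rose, and their median log2 fold change was 6.85. This list and that of the regulators below were chosen with earlier results known, so their counts of calls are a description. *Mst98Ca* rose from 10.4 ± 1.63 to 754 ± 415 normalized counts (log2 fold change 6.20 ± 0.42, q = 6.88e-46, DESeq2). *Mst77F*, which encodes a chromatin protein of sperm, rose from 12.8 ± 0.879 to 606 ± 346 (5.56 ± 0.41, q = 3.41e-38), and *ocn*, which encodes a small sperm protein, rose by 6.85 ± 0.86 on the log2 scale (q = 1.08e-13). *dj*, a gene of the sperm tail, rose by 6.89 ± 0.96 (q = 4.57e-11). The exceptions were *bol* (8761 ± 110 against 8449 ± 415 normalized counts, log2 fold change −0.05 ± 0.08, q = 0.902) and *twe* (128 ± 28.0 against 165 ± 51.1, q = 0.672), both regulators of meiosis that had high counts on the control diet. Among regulators of spermatocyte transcription, 3 of 7 tested rose, namely *topi*, *sa* and *aly*, with q values of 3.01e-04, 0.0869 and 0.0526, and *mia* had a log2 fold change of −0.07 ± 0.26 (q = 0.974). The calls of *sa* and *aly* were lost when certain single libraries were left out, among them sugar replicate 3 (q = 0.584 and 0.549). Transcripts and regulators together gave 18 calls with all libraries and without control replicate 2, and 16 without control replicate 3.

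The 15 testis transcripts without *bol* and *twe*, a sum formed after the values were seen, held 75.8, 59.0 and 79.7 normalized counts in the control libraries and 2719, 4427 and 8552 in the sugar libraries. The ratio of the S-Lap sum to this sum was 1.76, 1.10 and 1.53 in control replicates 1 to 3 and 1.95, 1.62 and 1.71 in sugar replicates 1 to 3. Over all 17 listed transcripts, a sum in which *bol* is the largest term on the control diet, the ratio was 0.0073 to 0.0151 in the control libraries and 0.471 to 0.870 in the sugar libraries. How even the ratio looks therefore depends on leaving out those 2 genes, which did not rise. The part of testis RNA as a whole in the S-Lap counts was not tested.

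Markers of 2 other organs outside the head moved as well. These lists were chosen with earlier results known, and 14.0% of all genes tested rose. All 16 accessory gland genes tested rose, and *Acp26Aa* was at 0 in every control library. Their summed levels were 14.8 to 82.8 normalized counts in control flies against 1948 to 5491 in sugar-fed flies. Of 10 gut enzyme genes tested, 6 rose, beside the same 14.0%, with sums of 136 to 773 and 2791 to 7462. *Jon65Ai* was at 0 in every control library. The ratio of the S-Lap sum to the accessory gland sum was 1.61, 2.26 and 8.27 in the control libraries and 2.72, 3.63 and 2.67 in the sugar libraries. To the gut sum it was 0.173, 0.178 and 0.899 in the control libraries and 1.90, 2.51 and 1.96 in the sugar libraries. The control gut sums of 773, 364 and 136 consisted mostly of *Amy-p* (444, 286 and 87.6 normalized counts). *Amy-p* did not pass the test (log2 fold change 0.43 ± 0.85, q = 0.934, DESeq2). How the S-Lap sum compares with the gut sum on the control diet therefore depends on that gene. Markers of the early germline were few, with *bgcn* the only 1 of 2 genes tested that rose and summed levels of 9.37 to 15.1 against 30.7 to 95.9. Of 5 fat body genes tested, 3 fell, beside 0.54% of all genes tested, namely the yolk protein genes *Yp1*, *Yp2* and *Yp3*. These calls rest mainly on control replicates 2 and 3. *Yp3* had 712, 14679 and 1753 normalized counts in control replicates 1 to 3 against 594 to 678 in the sugar libraries. *Yp2* had 50.8, 8219 and 562 against 4.84 to 23.2. DESeq2 and edgeR called 0 of 4 neuronal, 0 of 4 glial and 0 of 7 photoreceptor genes, with 1, 0 and 4 at an unadjusted p under 0.05 in DESeq2 and 0, 1 and 1 in edgeR. The part of these tissues in the differences between the diets was not tested.

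Because S-Lap proteins lie in the mitochondrial derivatives, the genes for other parts of that structure were examined. All 14 tested genes with a role in, or a testis-specific form for, sperm mitochondria rose, beside 14.0% of all genes tested. The list was chosen with earlier results known. Its sums were 159 to 257 normalized counts in control flies against 916 to 2058 in sugar-fed flies. The median log2 fold change was 4.35 (3.98 with *ATPsynGL*, which was at 0 in every control library, set at its lower bound). *fzo*, the mitofusin that fuses spermatid mitochondria, rose from 122 ± 28.9 to 244 ± 58.6 normalized counts (log2 fold change 1.00 ± 0.27, q = 0.0019, DESeq2). *bb8*, a glutamate dehydrogenase of the sperm mitochondria, rose from 3.16 ± 2.25 to 247 ± 145 (6.22 ± 0.62, q = 2.81e-21). *COX4L*, a testis form of a cytochrome oxidase subunit, rose from 4.59 ± 2.27 to 150.1 ± 77.2 (5.07 ± 0.58, q = 3.14e-16). *ATPsynGL*, a testis form of an ATP synthase subunit, was at least 6.97-fold higher against a floor of 3 counts per control library. The S-Lap sum was 0.253 to 0.765 times the sum of these 14 genes in control flies and 5.79 to 7.11 times in sugar-fed flies. In control replicates 1 to 3 *fzo* held 123, 151 and 93.5 of the 211, 257 and 159 normalized counts in that sum. Its log2 fold change was the lowest of the 14, so the size of the shift in this ratio depends in part on that gene. The ratio was not recomputed without *fzo*. The calls of *COX5BL*, *ATPsynbetaL*, *ATPsynCF6L* and *tomboy40* were lost without sugar replicate 3 (q = 0.144, 0.39, 0.298 and 0.467), which left 10 of the 14. Without control replicate 2 there were 14 calls, and without control replicate 3 there were 11.

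The counterparts of these genes that serve mitochondria in all tissues did not pass the test. In 12 pairs of a testis form and its general form, all 12 testis forms rose and none of the 12 general forms passed the test, with log2 fold changes of −0.30 to 0.02 for the general forms. The difference within a pair was not tested. *Marf*, the general mitofusin, was at −0.08 ± 0.09 and *Gdh*, the general glutamate dehydrogenase, at −0.11 ± 0.10. The mitochondrial pore gene *porin* was at −0.28 ± 0.12 while its testis form *Porin2* rose by 4.72 ± 0.61 (q = 8.82e-13). Over all 14 general mitochondrial genes DESeq2 and edgeR each called 0, with 2 at an unadjusted p under 0.05 in each tool, and 95% intervals within −0.55 to 0.42.

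**Figure D5:**
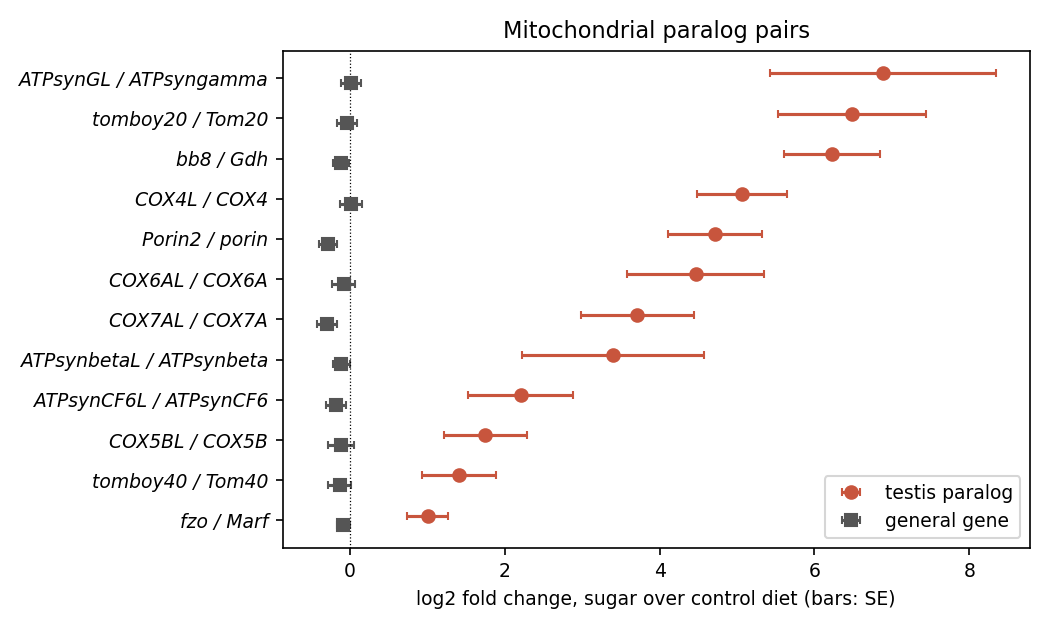
Log2 fold change (sugar over control diet, with SE) of 12 testis forms of mitochondrial genes and their general forms. The testis forms lie between 1.00 and 6.88 and the general forms between −0.30 and 0.02. *ATPsynGL* (6.88) was at 0 in every control library, so that its fitted value is not a bound.

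The 6 aminopeptidases tested outside the S-Lap family, of 9 listed, did not pass the test. *grsm*, a leucyl aminopeptidase that is not among the S-Laps, had 544, 605 and 419 normalized counts in control flies against 632, 522 and 595 in sugar-fed flies. The groups overlapped, and the log2 fold change was 0.16 ± 0.17 (95% interval −0.17 to 0.50, q = 0.801, DESeq2). *Psa*, a puromycin-sensitive aminopeptidase, was at 1324 ± 35.3 and 1633 ± 243 (0.30 ± 0.13, q = 0.128), and it passed the test only without sugar replicate 1 (0.38, q = 0.035). *Dip-B*, *SP1029*, *Dip-C* and *ApepP* had log2 fold changes of −0.20 to 0.20. DESeq2 and edgeR each called 0 of these 6 genes, with 1 at an unadjusted p under 0.05 in each tool, and all 6 intervals lay within −0.52 to 0.63. At 92 to 1973 counts per library these genes were well above the floor, and intervals of that width do not include a change of the size measured for the S-Lap genes.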

How the data were processed

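The authors aligned ribosomal-RNA-depleted stranded reads with STAR to dm6 (BDGP6) and deposited raw counts per gene. Their notes also name SAMtools 1.4, HTSeq and DESeq2 1.18.0. The aligner version and annotation release are not given in the sources used here. In the deposited layout, reads mapping to several places or several genes are counted apart, so near-identical genes are underestimated. The sense column held 97.2% of stranded counts and was used. Symbols and coordinates came from Ensembl BDGP6, and 274 of 17489 identifiers had no symbol. Lengths are merged exons.

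Diets were compared over all genes by DESeq2 1.42.0 (R 4.3.3, Wald test, two-sided), the study's own choice, calling Benjamini-Hochberg q under 0.1. A normalized count is a count divided by its size factor. The fit was tested on simulated data, where it recovered most changed genes but the share of false calls exceeded the threshold under DESeq2 and not under edgeR. Alternatives were edgeR 4.0.16, TMM factors, at least 10 counts in 3 libraries, unstranded counts, q under 0.05, a replicate block and leaving out each library. The labels call the replicates biological, and pairs differed by more than sampling noise (chi-square per degree of freedom 19.4 to 56.4). Intervals and the floor of 3 counts cover counting error only.

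The members and all gene lists were chosen with earlier results of these data known. Of 131 list symbols, 122 matched. Named genes were the 8 members, the 5 nearest profiles and up to 5 genes per list by mean count, plus list genes whose call changed, mitochondrial pairs, genes overlapping a member, *Pcl*, genes at 0 in every control library and the remaining genes of short lists.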

Additional observations from a re-analysis of the deposited data

Results flagged for a closer look

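Counts on the strand opposite to 4 S-Lap genes, a column that no comparison above used, were above the control level in the sugar libraries. Summed over the 3 sugar libraries they were 33 for *S-Lap1* (2 in the control libraries), 23 for *S-Lap3* (4), 16 for *S-Lap7* (0) and 29 for *loopin-1* (1). Per 100 sense counts these were 0.597, 0.699, 0.338 and 0.513, beside a median of 0.867 over all genes with at least 500 sense counts on sugar. These 4 were below that median, as was *S-Lap4* (0.296, with 14 counts on sugar and 4 on control), whereas *S-Lap2* (1.42, 31 and 18) and *S-Lap8* (1.11, 23 and 10) were above it. *S-Lap5* had 0 opposite-strand counts on sugar and 8 on control.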

How the results depend on the processing

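The S-Lap genes were chosen on these counts, so that their count under the threshold, 8 in each of the 12 alternatives, is no sign of stability. Their median log2 fold change was 5.85 to 6.80 over the libraries left out in turn, 6.41 with edgeR, 6.33 with unstranded counts and 6.33 with a replicate block. Same-numbered libraries did not deviate together (correlations of 0.03, −0.04 and −0.10), beside −0.18 to 0.20 for libraries of different number. The numbers thus gave no sign of pairing, although 3 correlations of this kind cannot exclude it. The block left 1842 genes called against 2067, 17 testis transcripts and regulators against 18, and 12 mitochondrial derivative genes against 14, and edgeR left 1600, 17 and 11. Of 88 recomputed member fold changes, 85 moved by less than the SD of the log2 counts among the sugar libraries and none reversed. *S-Lap3* and *S-Lap5* went to 7.78 and 7.10 without control replicate 1, and *S-Lap5* to 4.35 with unstranded counts. The count of other aminopeptidases called ranged from 0 to 1 over the libraries left out, the 1 being *Psa* without sugar replicate 1. Genes lower on sugar, 77 in all, numbered 39 with edgeR, 31 at q under 0.05, 121 with the block and 12 to 496 over the libraries left out, with 12 without sugar replicate 3, 496 without sugar replicate 1, 22 without control replicate 1, 33 without sugar replicate 2 and 212 without control replicate 3. The cause was not tested. Unstranded counts exchanged *S-Lap2* and *S-Lap8* in the order per length. The control values of the 8 genes rest on 338 counts in all.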
